A study of Mus musculus with 6 samples.

Results

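The genes described here are 10 genes of smooth muscle cells and pericytes, the mural cells that wrap blood vessels. They were taken by name from 24063 gene symbols counted in mouse lung endothelial cells (ECs), and all 10 were present and tested. Of these, 7 encode parts of the contractile apparatus (Acta2, Actg2, Myh11, Tagln, Cnn1, Lmod1 and Des) and 3 mark pericytes (Cspg4, Rgs5 and Kcnj8). ECs were isolated with magnetic beads coated with antibody to CD31, the EC surface protein encoded by Pecam1, from lungs of C57BL6 males. There were 3 libraries from sham-operated mice and 3 libraries from mice with the left lung removed (unilateral pneumonectomy, PNX) 7 days earlier, an operation after which the other lung grows. Sham-operated mice had the chest opened without removal of a lung. Each library was pooled from 2 mice, with an age of 8 weeks in the labels and a higher age in the study's methods, and the labels name no mutation or drug in either group. In such bulk RNA from bead-isolated cells, fewer cells of a type and less RNA per cell cannot be told apart.

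Vascular smooth muscle cells narrow and widen arteries by sliding actin filaments along myosin. Pericytes sit on capillaries, exchange signals with ECs and help to stabilize new vessels. In both cell types, serum response factor (SRF) with its coactivators of the myocardin family switches on many contractile genes through a short DNA element, the CArG box, whereas pericyte markers such as Rgs5 mark immature or remodelling mural cells in many tissues.

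The libraries did not form 3 equal replicates per group, and the results below depend on this. By their labels, replicates 1 and 2 of sham and of PNX were re-used from an earlier record (the earlier deposit). Replicate 3 of each group is not so marked (the later deposit), and that these belong together is inferred from the missing mark. Total counts were 29526989 to 81282871 per library and lowest in replicate 3. Over genes with 1 transcript, replicates 1 and 2 differed by a chi-square per degree of freedom of 1.75 in sham and 1.57 in PNX (1 is counting error alone), against 67.9 to 86.4 for pairs with replicate 3. Replicates 1 and 2 were therefore added together as 1 sample, so each group had n = 2 samples. Whether they were separate pools of mice or 1 pool sequenced more than once is not known, and n, the SDs, the standard errors and the p-values below rest on counting them once. For this reason each gene is also given library by library and deposit by deposit. Levels are CPM, counts scaled to a common library total, with TMM factors that align the bulk of genes. The defining EC genes were abundant in all libraries, with Pecam1 at 769 to 955 TPM (transcript share of the library, corrected for length). Cdh5, which encodes VE-cadherin, was at 799 to 962 TPM. Other cell types contributed too. In sham, 10 lung epithelial markers summed to 10514 to 10945 CPM and 10 endothelial markers to 8770 to 10858 CPM. In PNX these sums were 3228 to 7079 and 8033 to 9119 CPM. The sums are not corrected for transcript length and add counts over all transcripts of a symbol, so they do not compare amounts between lists.

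The proximal promoters are shown first because the contractile genes are classical CArG box genes. A CArG box is CCNNNNNNGG with A or T at each of the 6 middle bases, and the pattern reads alike on both strands. In the 250 bases before the start of each gene in RefSeq (GRCm38.p6), which held 7 of the 10 genes, no gene had a complete CArG box, as 1.47% of 32851 mouse promoters did. Stretches with at most 2 of the middle bases being C or G occurred in Acta2, Cspg4 and Rgs5, and such a stretch was present in 26.9% of all promoters. They are given 5′ to 3′ on the strand of the gene, with the 10 pattern bases in capitals and 10 flanking bases on each side.
Acta2, 84 bases before the start (chr19:34255438-34255467): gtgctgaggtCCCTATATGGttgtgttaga
Acta2, 34 bases before the start (chr19:34255388-34255417): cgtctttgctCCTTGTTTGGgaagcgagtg
Cspg4, 191 bases before the start (chr9:56864903-56864932): gtccttcaatCCTAACCAGGagcaagagcc
Rgs5, 22 bases before the start (chr1:169655469-169655498): tgtatatattCCTCAAAGGGaaaggctgcc
Both Acta2 stretches depart from the pattern at 1 base, which 8.59% of all promoters match or better, and those of Cspg4 and Rgs5 depart at 2. The search covers this strict pattern in 250 bases only. Starts are those of RefSeq and differ for Acta2 and Cspg4 from the GENCODE positions given below, where the Acta2 stretches lie inside the gene. SRF binding was not measured, so a departure does not show that a stretch is not a working CArG box. Tagln, Actg2 and Myh11 were not in the promoter table.

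In TPM, a scale on which genes can be compared, Tagln and Acta2 were the highest of the 10 genes in sham libraries, at 87.0 to 108 and 56.0 to 66.1. Des followed at 24.1 to 27.3 and Myh11 at 12.6 to 19.3, and these 4 ranges did not overlap. Actg2 (5.57 to 5.91), Cnn1 (4.46 to 5.33), Rgs5 (4.34 to 5.44), Kcnj8 (3.32 to 5.57) and Cspg4 (2.92 to 5.24) lay close together, and Lmod1 was lowest at 2.41 to 3.02. After PNX, the ranges of Tagln (76.6 to 146) and Acta2 (53.1 to 80.1) overlapped. Rgs5 moved up in this order, with 17.2 to 19.1 TPM after PNX against 9.15 to 13.2 TPM for Myh11, which had stood above it in sham.

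Of the 10 genes, Rgs5 was the one with a large difference between PNX and sham in every library. Rgs5, a regulator of G protein signalling that shortens signals from receptors for vasoconstrictors, is encoded on the plus strand of chromosome 1 (GRCm38, 169655501 to 169695813) with no overlapping gene in GENCODE vM21. Sham replicates 1, 2 and 3 had 3.10, 3.22 and 3.95 CPM, and PNX replicates 1, 2 and 3 had 13.97, 12.97 and 12.3 CPM. All 3 PNX libraries thus lay far above all 3 sham libraries, and the libraries of a group lay close together although they came from both deposits. The sham mean of 3.56 ± 0.505 CPM (SD, n = 2 samples) stood against a PNX mean of 12.9 ± 0.728 CPM (SD, n = 2 samples), a fitted fold of 3.65.

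The log2 fold change of Rgs5 was 1.87 with a standard error (SE) of 0.20. With 4 samples and no block, edgeR's quasi-likelihood test gave it an adjusted p = 0.0738, above the threshold of 0.01. Calling a gene took an adjusted p below 0.01 together with a log2 fold change beyond 1 in size, and 0 of 16598 genes (0.0%) met both, while 12.5% had an unadjusted p under 0.05 and DESeq2 on the same samples called 2.96% of the genes it tested. With the deposit as a replicate block, which has 1 residual degree of freedom, edgeR called 5.12% of all genes tested (3.89% of all genes tested were called higher after PNX) and 1 of the 10 genes. That gene was Rgs5, which rose by a log2 change of 1.89 (SE 0.15, edgeR adjusted p = 2.28e-04). Rgs5 was also the only one of the 10 called by DESeq2 on the 4 samples (DESeq2 adjusted p = 1.03e-09). When all 6 libraries were entered as separate replicates, Rgs5 was the 1 gene of the 10 called. In these fits edgeR called 2.51% of all genes without and 6.79% with the block, and DESeq2 called 4.68%. They count replicates 1 and 2 as independent although these differed by little more than counting error. Their p-values can therefore be too small, and they are not separate support for the call.

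Within the earlier deposit Rgs5 was 4.20 times higher after PNX (exact 95% interval 3.79 to 4.65, from 1889 against 481 counts). Within the later deposit it was 3.17 times higher (2.59 to 3.89, from 366 against 133 counts). These Clopper-Pearson intervals cover counting error only, here and below. Each interval lay wholly above 1. They overlapped only from 3.79 to 3.89, and neither ratio lay in the interval of the other deposit. Whether the ratios differed was not tested.

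**Figure D1:**
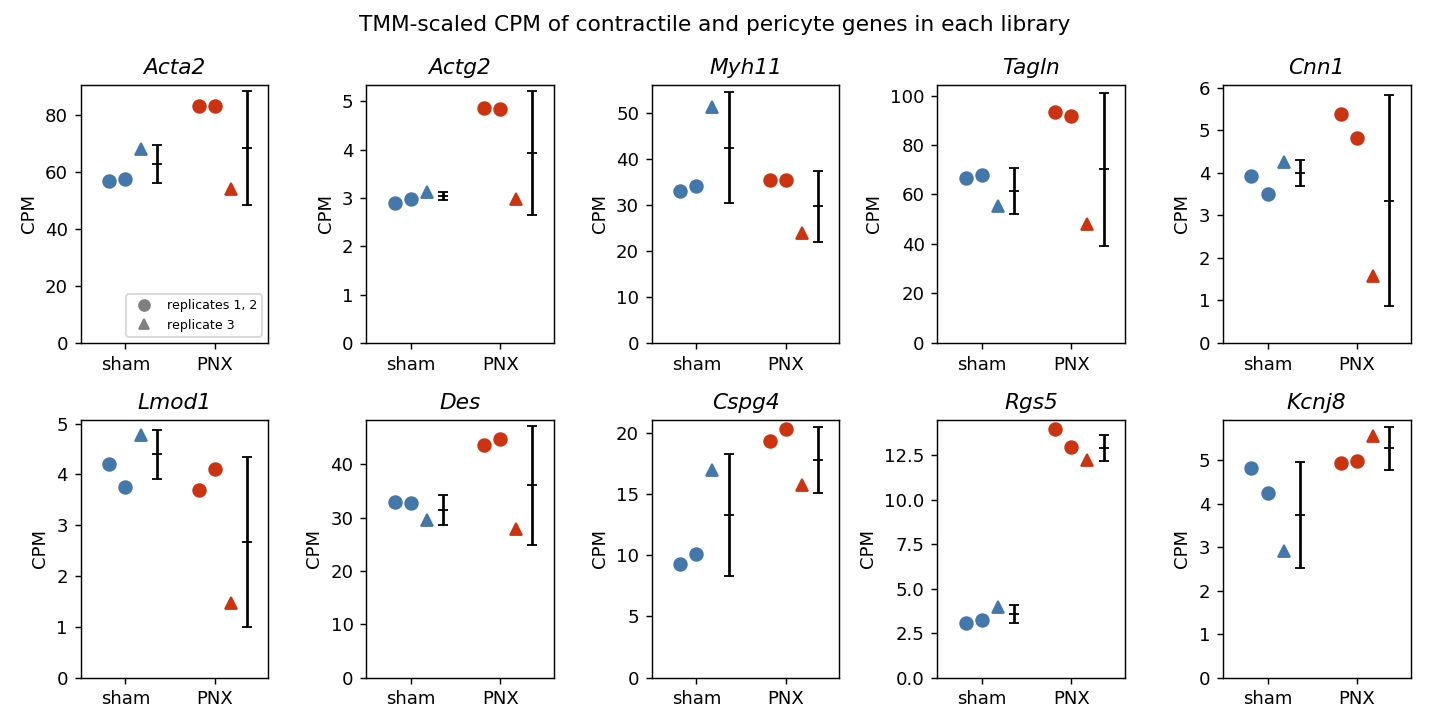
Level of each of the 10 genes (TMM-scaled CPM, linear axis from 0) in the 3 sham libraries (blue) and the 3 PNX libraries (red), with circles for replicates 1 and 2 and triangles for replicate 3, and black bars for the mean ± SD of the 2 samples per group. The PNX libraries of Rgs5 sit between 12.3 and 13.97 CPM, above all sham libraries, whereas for 6 of the 7 contractile genes PNX replicate 3 is the lowest of the 6 libraries.

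Kcnj8 and Cspg4, the other pericyte genes, did not share the pattern of Rgs5. Kcnj8 (chromosome 6, minus strand, 142564837 to 142571614) encodes the pore of an ATP-sensitive potassium channel that lets mural cells respond to their metabolic state. It had 4.81, 4.26 and 2.91 CPM in sham replicates 1, 2 and 3, and 4.94, 4.97 and 5.57 CPM in PNX replicates 1, 2 and 3. All PNX libraries lay above all sham libraries, but in the earlier deposit only narrowly.

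The Kcnj8 ratio of PNX to sham was 1.07 in the earlier deposit (0.960 to 1.19) and 1.95 in the later one (1.51 to 2.53). Its log2 fold change over the 4 samples was 0.48 (SE 0.30, edgeR adjusted p = 0.623). Libraries that did not overlap between groups were common, since 36.7% of all genes tested showed this and 18.8% had PNX above sham, as Rgs5 and Kcnj8 did among the 10 genes.

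Cspg4 (chromosome 9, plus strand, 56865033 to 56899870) encodes the proteoglycan NG2 on the surface of pericytes. The levels were 9.28, 10.1 and 16.9 CPM in sham replicates 1, 2 and 3, and 19.3, 20.3 and 15.7 CPM in PNX replicates 1, 2 and 3. In the earlier deposit PNX was 2.01 times sham (1.89 to 2.14), while in the later deposit it was 0.945 times sham (0.834 to 1.07). In the later deposit sham was 1.72 times the earlier sham sample (1.55 to 1.89), and PNX was 0.807 times the earlier PNX sample (0.730 to 0.890). The log2 fold change over the 4 samples was 0.43 (SE 0.31, edgeR adjusted p = 0.669).

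Of the 7 contractile genes, Acta2, Actg2, Tagln, Cnn1 and Des were higher after PNX in the earlier deposit beyond counting error, and Acta2, Myh11, Tagln, Cnn1 and Lmod1 were lower in the later deposit beyond counting error. The intervals of Myh11 and Lmod1 in the earlier deposit and of Actg2 and Des in the later one spanned 1. In the earlier deposit 6 of 7 had a ratio of PNX to sham above 1, with a median log2 ratio of 0.43, and in the later deposit 0 of 7 did, with a median of −0.31. Over all 16598 genes tested 46.8% had a ratio above 1 in the earlier deposit and 49.96% did in the later, with median log2 ratios of −0.03 and 0.00. Of all 10 genes, 7 had both PNX libraries above both sham libraries in the earlier deposit and PNX below sham in the later one, a pattern that 8.96% of all genes showed (6.21% showed the reverse, and 0 of the 10). Taken singly, both PNX libraries were above both sham libraries in the earlier deposit for 9 of the 10 genes and 40.3% of all genes, and PNX was below sham in the later deposit for 8 of the 10 and 53.6% of all genes. The genes were set apart for description because of this difference between deposits, so it was given no test.

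Acta2 and Actg2 encode the smooth muscle actins, the thin filaments of the contractile apparatus. Acta2 (chromosome 19, minus strand, 34241090 to 34255590) had 56.9, 57.7 and 68.2 CPM in sham replicates 1, 2 and 3 and 83.1, 83.2 and 53.9 CPM in PNX replicates 1, 2 and 3. PNX replicates 1 and 2 were the highest of the 6 libraries and PNX replicate 3 was the lowest. The ratio was 1.43 in the earlier deposit (1.39 to 1.47) and 0.806 in the later one (0.756 to 0.859).

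Actg2 (chromosome 6, minus strand, 83512905 to 83536265), the actin typical of visceral smooth muscle, had 2.89, 2.99 and 3.12 CPM in sham replicates 1, 2 and 3, against 4.87, 4.85 and 2.98 CPM in the PNX libraries in that order. PNX replicate 3 lay within the sham libraries. The Actg2 ratio was 1.63 in the earlier deposit (1.44 to 1.84) and 0.976 in the later one (0.727 to 1.31). Over the 4 samples, the log2 fold changes were 0.13 for Acta2 (SE 0.24, edgeR adjusted p = 0.899) and 0.39 for Actg2 (SE 0.31, edgeR adjusted p = 0.707). Of the 50-base windows of the Acta2 transcript, 0.352% were also found in a transcript of another gene, and 0% of those of Actg2, so reads of these actins could mostly be told from those of their relatives.

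Myh11 and Lmod1 were nearly level between PNX and sham in the earlier deposit and much lower after PNX in the later one. Myh11 (chromosome 16, minus strand, 14194535 to 14291372) encodes the smooth muscle myosin heavy chain, the most specific marker of mature smooth muscle. Its 2 RefSeq transcripts had almost the same counts in every library, and counted once it had 33.1, 34.1 and 51.4 CPM in sham replicates 1, 2 and 3 and 35.4, 35.5 and 23.9 CPM in PNX replicates 1, 2 and 3. The 2 libraries of the later deposit were the highest and the lowest of the 6.

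The Myh11 ratio was 1.04 in the earlier deposit (0.996 to 1.08) and 0.474 in the later one (0.434 to 0.518, from 714 against 1732 counts). Lmod1 (chromosome 1, plus strand, 135324807 to 135368065), which encodes a leiomodin that starts new actin filaments, had 4.21, 3.75 and 4.78 CPM in sham replicates 1, 2 and 3, against 3.69, 4.10 and 1.48 CPM in the PNX libraries in that order. Its groups overlapped in the earlier deposit, with a ratio of 0.954 (0.848 to 1.07), and the later ratio was 0.315 (0.220 to 0.441, from 44 against 161 counts). The log2 fold changes over the 4 samples were −0.51 for Myh11 (SE 0.29, edgeR adjusted p = 0.570) and −0.68 for Lmod1 (SE 0.48, edgeR adjusted p = 0.668).

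Cnn1 and Tagln encode calponin and SM22, actin-binding proteins of smooth muscle. Cnn1 (chromosome 9, plus strand, 22099216 to 22109630) had 3.93, 3.50 and 4.25 CPM in sham replicates 1, 2 and 3, against 5.395, 4.82 and 1.58 CPM in the PNX libraries in that order. The Cnn1 ratio was 1.35 in the earlier deposit (1.21 to 1.51) and 0.378 in the later one (0.266 to 0.529, from 47 against 143 counts). Its direction over the 4 samples, a log2 change of −0.22 (SE 0.56, edgeR adjusted p = 0.932), turned to 0.36 without PNX replicate 3.

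Tagln (chromosome 9, minus strand, 45929619 to 45936058) had 66.5, 67.8 and 55.4 CPM in sham replicates 1, 2 and 3, against 93.3, 91.9 and 47.9 CPM in the PNX libraries in that order. Replicate 3 was the lowest library in each group. Its ratio was 1.36 in the earlier deposit (1.32 to 1.39) and 0.882 in the later one (0.823 to 0.946), with a fitted log2 change of 0.20 over the 4 samples (SE 0.34, edgeR adjusted p = 0.889). The Tagln count is uncertain, because 48.3% of the 50-base windows of its transcript are shared with other genes, mainly an antisense gene, Gm48529, and no source used here says whether counting used strand.

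Des (chromosome 1, plus strand, 75360329 to 75368579) encodes desmin, the intermediate filament that ties contractile units together and also marks pericytes. It had 33.0, 32.8 and 29.7 CPM in sham replicates 1, 2 and 3, against 43.7, 44.8 and 27.8 CPM in the PNX libraries in that order. Again PNX replicates 1 and 2 were the highest libraries and PNX replicate 3 the lowest. The Des ratio was 1.32 in the earlier deposit (1.27 to 1.37) and 0.956 in the later one (0.871 to 1.05), and its log2 fold change over the 4 samples was 0.20 (SE 0.25, edgeR adjusted p = 0.823). An antisense gene, Gm15179, shares 5.81% of the windows of the Des transcript.

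**Figure D2:**
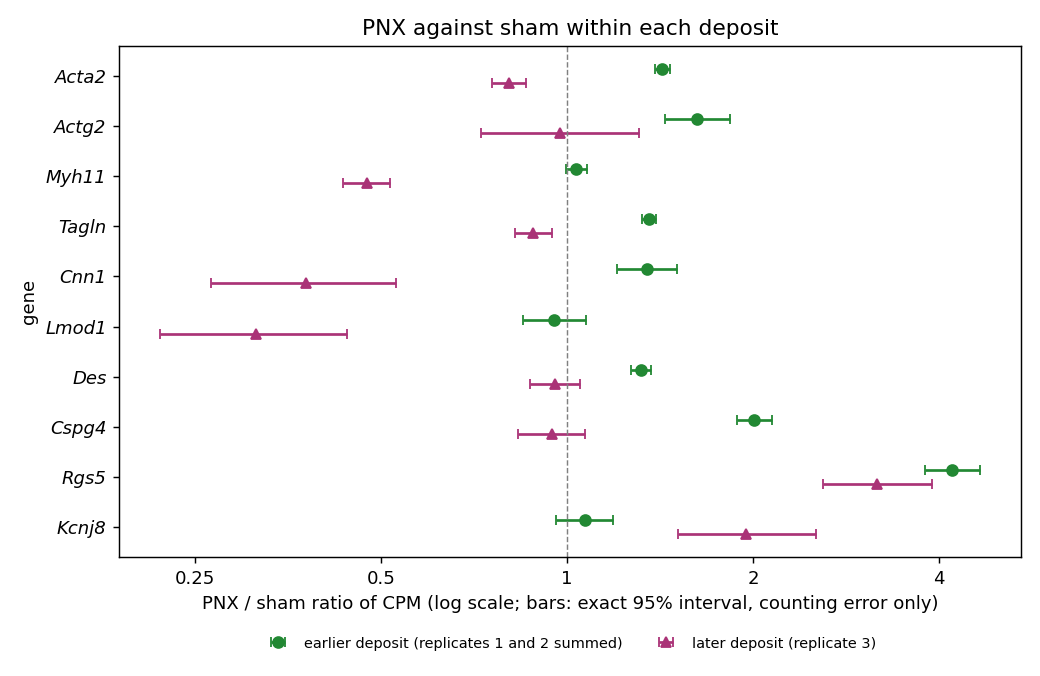
Ratio of CPM after PNX to CPM in sham (log axis) for each gene within the earlier deposit (green circles, replicates 1 and 2 summed) and the later deposit (purple triangles, replicate 3), with exact 95% intervals for counting error only and a dashed line at 1. Rgs5 lies above 1 in both deposits (4.20 and 3.17). The later deposit lies left of the earlier one for all 7 contractile genes, Cspg4 and Rgs5, and right of it for Kcnj8.

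The deposits also differed within each group. Between PNX samples, 9 of the 10 genes were lower in the later deposit, all but Kcnj8, with a median log2 ratio of later to earlier of −0.62, against 0.02 over all genes tested. Of all genes tested, 52.3% were higher in the later PNX sample. Cnn1 was lowest in this comparison, at 0.312 times its earlier PNX level (0.227 to 0.420), and Rgs5 was at 0.923 times (0.823 to 1.03). Between sham samples, 7 of the 10 genes were higher in the later deposit, as were 49.6% of all genes, with a median log2 ratio of 0.19 against 0.00 over all genes. For Cspg4, Kcnj8, Rgs5 and Myh11 the log2 ratio was larger in size between sham samples (0.78, −0.68, 0.29 and 0.58) than between PNX samples (−0.31, 0.19, −0.12 and −0.54), and no test compared the groups. PNX replicate 3 was the lowest of the 6 libraries for 6 of the 7 contractile genes, all but Actg2, and for none of the 3 pericyte genes, against 27.7% of all genes. With 1 pool of mice per group in the later deposit, a difference between deposits cannot be told apart from one between pools.

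Over the 4 samples the 10 genes had a median log2 fold change of 0.20, the contractile genes 0.13 and all genes tested −0.01. The median of the 10 genes was 0.44 without PNX replicate 3 and −0.18 without replicates 1 and 2 of PNX. Apart from Rgs5, the 9 other genes had adjusted p-values of 0.570 to 0.932 in edgeR's quasi-likelihood test without the block. These tests do not show that the 9 genes stayed level, since within each deposit several of them differed beyond counting error, in opposite directions.

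Genes that act with these 10 were examined as lists. Of 21 tested partners of the contractile apparatus, such as tropomyosins, myosin light chains and caldesmon, 0 were called with either fit, against 5.12% of all genes with the replicate block. Their median log2 ratio was 0.29 in the earlier deposit and −0.21 in the later one, and over the 4 samples 11 had a higher and 10 a lower fitted level. The partner with the most counts, Fhl1, which encodes a LIM domain protein of muscle, had 1220.1 to 1433 CPM in sham and 653 to 1271 CPM in PNX.

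Among these partners with a mean count of at least 50 the largest fitted changes belonged to Tpm2, Itga8 and Synm. Tpm2, the beta-tropomyosin that lies along actin filaments, had 34.2, 36.04 and 32.5 CPM in sham replicates 1, 2 and 3, against 68.2, 70.8 and 49.7 CPM in the PNX libraries in that order. It was higher in both deposits, with a fitted log2 change of 0.82 (SE 0.20, edgeR adjusted p = 0.215, or 0.00204 under the replicate block), under the fold threshold. Synm, which encodes the desmin-binding filament protein synemin, had a fitted log2 change of −0.75 (SE 0.30, edgeR adjusted p = 0.424, or 0.00105 under the replicate block), with log2 ratios of −0.76 and −0.73 in the earlier and later deposit. Itga8, an integrin chain of smooth muscle and lung fibroblasts, had −0.79 (SE 0.32, edgeR adjusted p = 0.429), with −0.41 and −1.32 in the earlier and later deposit.

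Of 17 further pericyte and mural genes, 0 were called with either fit, against 5.12% of all genes with the replicate block and 0.0% without, so that 0 of 17 is near the background. In the earlier deposit 15 of 17 had a ratio of PNX to sham above 1, against 46.8% of all genes. In the later deposit 5 of 17 did, against 49.96% of all genes, and these were Abcc9, Anpep, Lamc3, Mcam and Postn. The median log2 ratios of the 17 were 0.31 and −0.52, so most of them differed between deposits as the contractile genes did. PNX replicate 3 was the lowest of the 6 libraries for 10 of the 17, against 27.7% of all genes. Among these 10 were Notch3, Higd1b, Cox4i2 and Ndufa4l2. Pdgfrb, the receptor through which ECs recruit pericytes by PDGF-B, had 162, 162 and 233 CPM in sham replicates 1, 2 and 3, against 197, 194 and 167 CPM in the PNX libraries in that order. Pdgfrb is named outside the rule for named genes, for its role.

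Abcc9, which encodes the regulatory subunit that assembles with the Kcnj8 channel pore, was higher after PNX in both deposits. Its levels were 18.2, 18.001 and 25.6 CPM in sham replicates 1, 2 and 3, against 31.3, 32.5 and 47.9 CPM in the PNX libraries in that order. All PNX libraries lay above all sham libraries, with a fitted log2 change of 0.87 (SE 0.28, edgeR adjusted p = 0.321, or 8.69e-04 under the replicate block), under the fold threshold. Lamc3, a laminin chain, had a fitted log2 change of 0.77 (SE 0.25, edgeR adjusted p = 0.327), and Vtn, the matrix protein vitronectin, −0.49 (SE 0.38, edgeR adjusted p = 0.696). The gene with the most counts of the 17, Postn, which encodes the matrix protein periostin, had 469 to 535 CPM in sham and 591 to 946 CPM in PNX, with a fitted log2 change of 0.61 (SE 0.26, edgeR adjusted p = 0.449).

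Of 9 regulators of smooth muscle genes, 1 was called with the replicate block and 0 without it, against 5.12% and 0.0% of all genes. That gene was Tbx18, a T-box factor of mural and mesothelial lineages, which rose by a log2 change of 1.67 (SE 0.24, edgeR adjusted p = 0.00341 with the replicate block, 0.353 without). It was low, at 0.521, 0.488 and 1.10 CPM in sham replicates 1, 2 and 3, against 1.53, 1.71 and 3.49 CPM in the PNX libraries in that order. Myocd, which encodes myocardin, the SRF coactivator specific to muscle, had 0.968, 1.20 and 1.37 CPM in sham replicates 1, 2 and 3, against 1.21, 1.10 and 0.369 CPM in the PNX libraries in that order. Its log2 ratio was 0.08 in the earlier deposit and −1.81 in the later one, and PNX replicate 3 was again the lowest library. The later ratio rests on few counts, 11 in PNX replicate 3 against 46 in sham replicate 3. Srf itself had log2 ratios of −0.28 and −0.20 in these deposits.

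The other regulators named were Mkl2 and Gata6. Mkl2, a myocardin-related coactivator and the one of the 9 with the most counts, had a fitted log2 change of −0.43 (SE 0.15, edgeR adjusted p = 0.353, or 0.00982 under the replicate block). Gata6, a zinc finger factor of lung and vascular smooth muscle, had 0.71 (SE 0.17, edgeR adjusted p = 0.206, or 0.00341 under the replicate block), with a higher level in both deposits. Neither reached the fold threshold.

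**Figure D3:**
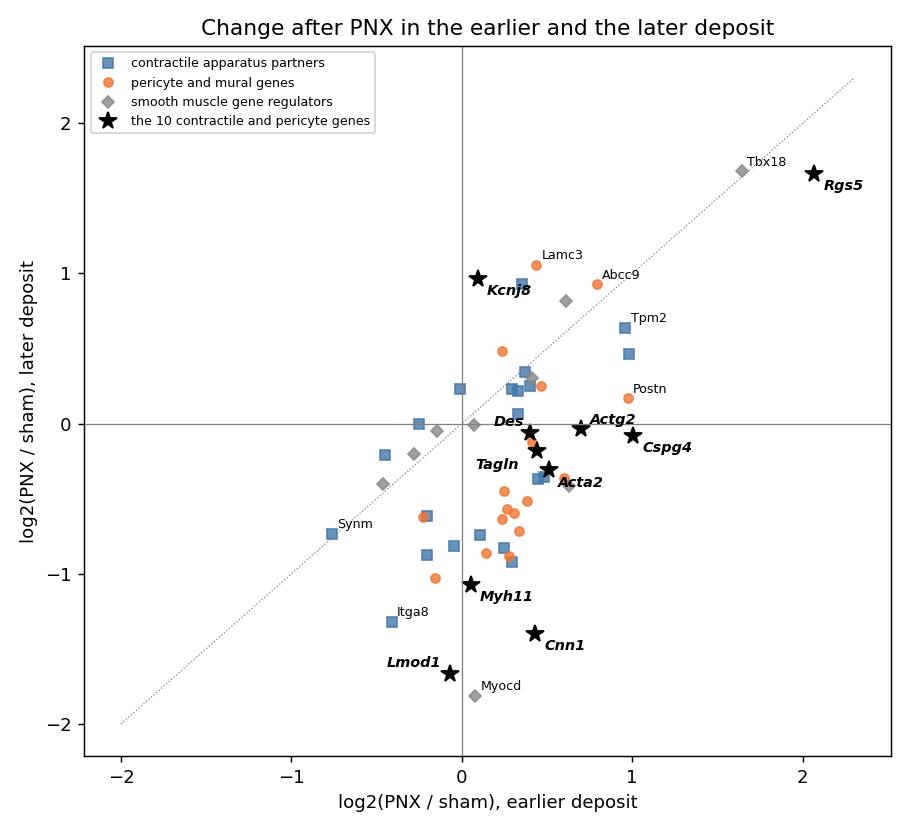
Log2 ratio of PNX to sham in the earlier deposit (horizontal axis) against the later deposit (vertical axis), for the 10 genes (stars), partners of the contractile apparatus (blue squares), pericyte and mural genes (orange circles) and regulators (grey diamonds), with a dotted line where both deposits are equal. Rgs5, Tbx18 and Abcc9 are above 0 on both axes, whereas Cnn1 and Myh11 are above 0 in the earlier and below −1 in the later deposit.

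Genes were also ranked by how closely their level followed that of a named gene over the 4 samples, as the root mean square difference of centred log2 CPM among 14156 genes with at least 1 CPM. The 5 genes closest to Acta2 were Slit2, Nanos1, P2ry1, Nol3 and Hunk, with differences of 0.03 to 0.04, and the contractile genes nearest to it were Actg2 at rank 63 and Des at rank 123. Closest to Myh11 were Magi2, Tmem150c, Fbxl13, Aass and Tmem200a (0.05 to 0.08), and closest to Rgs5 was Lrrn2 (0.02). Lrrn2 had 1.40, 1.68, 5.94 and 5.59 CPM in the earlier sham, later sham, earlier PNX and later PNX samples. With 4 samples many genes share any simple pattern, and the ranking is a description.

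Summed markers of other cell types also differed between groups and deposits, and their part in the results above was not tested. The summed level of 10 lung epithelial markers was 10514 to 10945 CPM in sham and 3228 to 7079 CPM in PNX, lowest in PNX replicate 3, and all 10 had a lower fitted level after PNX. For 10 endothelial markers the sum was 8770 to 10858 CPM in sham and 8033 to 9119 CPM in PNX, also lowest in PNX replicate 3. For 10 lung fibroblast markers it was 3420 to 3570 CPM in sham and 4869 to 5411 CPM in PNX, with 5 of the 10 at a higher and 5 at a lower fitted level, and 3 collagen and matrix genes (Col1a1, Col1a2 and Dcn) called higher with the replicate block.

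Mesothelial markers, 7 in number, summed to 163 to 397 CPM in sham and 337 to 886 CPM in PNX, with the higher value in replicate 3 of each group and all 7 higher after PNX. The sum of 10 leukocyte markers was 2739 to 5166 CPM in sham and 3192 to 4450 CPM in PNX. Other muscle was scarce, with 15.9 to 25.6 CPM in sham and 17.7 to 18.5 CPM in PNX for 10 cardiac markers. For 10 skeletal muscle markers, of which Myh4 had 0 counts in every library, the sums were 5.99 to 13.5 CPM and 7.09 to 10.4 CPM. The gene with the most counts in each of these lists had a fitted log2 change of 0.01 (Pecam1, endothelial), −0.30 (Npnt, fibroblast), 1.74 (Msln, mesothelial), −0.64 (Ager, epithelial), −0.05 (Lyz2, leukocyte), −0.78 (Actc1, cardiac) and −0.28 (Tnnt3, skeletal). Of these, Msln was called with the replicate block (log2 change 1.81, edgeR adjusted p = 3.97e-05). By list, this fit called 6 of 10 epithelial markers lower, and 4 of 7 mesothelial and 3 of 10 fibroblast markers higher. It called 1 leukocyte marker higher and 1 lower, and 0 endothelial, cardiac or skeletal muscle markers. Over all genes tested it called 5.12%.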

How the data were processed

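RNA of lung ECs was sequenced as 3 sham and 3 PNX libraries. The authors aligned reads of stranded mRNA libraries to mm10 (GRCm38) and deposited counts per RefSeq transcript with FPKM and TPM. The submitters' processing notes name STAR without a version. No source used here states the counting rule or annotation release. The TPM values that the authors deposited were used to compare levels between genes, and the FPKM values that the authors deposited were not used. Counts were summed per symbol, and Myh11 is printed from 1 of its 2 transcripts while fits used their sum. CPM of genes outside the 10 are from the summed counts, in which reads shared by transcripts may be counted more than once. Replicates 1 and 2 of a group were summed after their counts were compared over genes with at least 20 counts in the pair.

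PNX and sham were compared with edgeR 4.0.16 in R 4.3.3 (filterByExpr, TMM, then glmQLFit and glmQLFTest), and p-values were adjusted by Benjamini-Hochberg across every gene in the fit. Alternatives used limma-voom (3.58.1) and DESeq2 1.42.0. Calls required adjusted p below 0.01 and a log2 fold change beyond 1 in size. Standard errors of edgeR fold changes are the fold change divided by the square root of F. The fits were tested on simulated counts. The deposit was the replicate block. The labels mark the libraries of the earlier deposit as re-used in both groups. That the unmarked libraries of both groups share the later deposit is inferred from the missing mark, and the block rests on this. P-values measure only the spread between these pools. Total counts set the precision of each ratio. Intervals assume independent reads. Positions and overlaps are from GENCODE vM21.

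The genes and lists were chosen with earlier results of these data known. Named genes are the 10 genes, the gene with the most counts in each smooth muscle and pericyte list, and up to 3 others per list with the largest fitted change and a mean count of at least 50, with Abcc9 and Tbx18 among them. For marker lists of other cell types the rule named the gene with the most counts, and these were Pecam1, Npnt, Msln, Actc1, Tnnt3, Ager and Lyz2. Pdgfrb, Srf, Cdh5, Col1a1, Col1a2, Dcn, Myh4, Notch3, Higd1b, Cox4i2, Ndufa4l2, Anpep and Mcam were named outside the rule, after their values were seen. Genes were also named by likeness to Acta2, Myh11 and Rgs5, up to 5 each, and for Rgs5 the genes after the closest are not reported here.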

Additional observations from a re-analysis of the deposited data

Results flagged for a closer look

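For 7 of the 10 genes, both PNX libraries of the earlier deposit lay above both sham libraries, while PNX lay below sham in the later deposit. Among all genes tested 8.96% showed this. The difference between the deposits was not tested, since each deposit was counted as 1 sample per group. The log2 ratio of PNX to sham was lower in the later deposit than in the earlier one by a difference of −0.82 for Acta2, −0.74 for Actg2, −1.13 for Myh11, −0.62 for Tagln, −1.83 for Cnn1, −0.46 for Des and −1.09 for Cspg4. For Myh11 the earlier ratio was only 1.04, so this gene moved by little in one deposit and by much in the other.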

How the results depend on the processing

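The number of the 10 genes called was 0 in edgeR without a block and 1, always Rgs5, in 7 alternatives, of which the last 4 were chosen after seeing the data. These were DESeq2 on the 4 samples (587 genes called in all), edgeR with the replicate block (849) and edgeR with the 6 libraries as separate replicates (409). The last 4 were DESeq2 on the 6 libraries (927), the replicate block with the 6 libraries (1104), and the replicate block with DESeq2's size factors (624) or with library size alone (629). Fits with the 6 libraries count replicates 1 and 2 as independent, so they are not separate support for the call. When libraries were left out, 0 to 2 genes were called in all (2 without PNX replicate 3) and 0 of the 10, and Rgs5 had log2 fold changes of 1.71 to 2.03 with edgeR adjusted p-values of 0.0570 to 0.168. Rgs5, Kcnj8 and Cspg4 were higher and Myh11 and Lmod1 lower in every alternative, but no alternative fitted a deposit alone. Within the earlier deposit the ratio of PNX to sham was 1.04 for Myh11 (0.996 to 1.08) and 2.01 for Cspg4. In the later deposit it was 0.474 for Myh11 and 0.945 for Cspg4 (0.834 to 1.07). The size of the log2 changes depended on replicate 3: without PNX replicate 3 Lmod1 was −0.18, Myh11 −0.27, Acta2 0.40, Actg2 0.68, Tagln 0.59 and Des 0.49, and without sham replicate 3 Myh11 was −0.18, Cspg4 0.88, Kcnj8 0.20, Acta2 0.26, Tagln 0.07 and Des 0.13. The sign of Cnn1 turned, to 0.040 with the 6 libraries as separate replicates, 0.019 with DESeq2 on the 6 libraries, 0.065 with the replicate block and the 6 libraries, and 0.36 without PNX replicate 3, where leaving out 1 library at a time gave −0.29 to 0.36. Without replicates 1 and 2 of PNX, 4 genes turned, to −0.20 for Acta2, −0.0045 for Actg2, −0.34 for Tagln and −0.16 for Des. Beyond fewer or different samples, the cause of these changes was not tested. Apart from Rgs5, the replicate block changed no call among the 10 genes. Among the 10 genes, depth limits Lmod1 and Cnn1 most, with 44 and 47 counts in PNX replicate 3.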
